A study of Mus musculus with 6 samples.

Results

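The 41 genes described here encode the enzymes of central carbon metabolism: glycolysis from hexokinase to lactate dehydrogenase, the pyruvate dehydrogenase step, the pentose phosphate pathway and the tricarboxylic acid (TCA) cycle with its cytosolic relatives. They are a list of gene symbols with no cut on measured values, drawn up with earlier results of these data known, and all 41 were found among the 25628 genes of the deposited count table. The cells were TgSpi1 erythroleukaemic cells, numbered #722 in the labels: leukaemic erythroid cells from bone marrow of mice with a Spi1 transgene, cultured with erythropoietin (EPO). Spi1 encodes PU.1, a transcription factor of the myeloid and B-cell lineages. All 6 libraries carry the transgene and the inducible construct. In the 3 Dox_Treated libraries, doxycycline given for 48 h had induced a short hairpin RNA against Spi1; the 3 Dox_Untreated libraries did not receive doxycycline. Polyadenylated RNA was sequenced, and the labels call the replicates biological. Doxycycline without the hairpin was not analysed here, so an effect of the drug and an effect of the knockdown cannot be told apart. Because these are bulk samples, fewer cells of a type and less RNA per cell cannot be told apart either.

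Glycolysis splits glucose into pyruvate and yields ATP in the cytosol. The pentose phosphate pathway branches off after hexokinase, makes NADPH in its oxidative arm and ribose phosphate in its other arm, and returns sugar phosphates to glycolysis. Pyruvate dehydrogenase feeds carbon into the mitochondrial TCA cycle and is switched off by the pyruvate dehydrogenase kinases. Maturing red cells lose their mitochondria and come to depend on glycolysis and the pentose phosphate pathway, and they use bisphosphoglycerate, made in a side branch of glycolysis, to lower the oxygen affinity of haemoglobin. Several of the steps have isozymes, and erythroid cells use a characteristic set: Pklr is the pyruvate kinase gene of liver and red cells, Bpgm makes bisphosphoglycerate, and Pfkm and Pfkl supply the phosphofructokinase of red cells.

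The libraries held between 78926663 and 101276319 counts, of which the 41 genes took between 1.03% and 1.2%. Levels are given as CPM, the usual measure of a gene's counts relative to the scaled total of its library. Spi1 itself, the target of the hairpin, had 414.5, 353.5 and 329.6 CPM in untreated replicates 1, 2 and 3 and 84.8, 80.4 and 62.1 CPM in doxycycline-treated replicates 1, 2 and 3 (log2 fold change -2.27, SE 0.17, adjusted p = 0.0030 with edgeR). Libraries with the same replicate number resembled each other: over all genes, their deviations from the group means correlated with r of 0.769, 0.742 and 0.723, and those of unlike numbers with r of -0.592 to -0.088. The deviations of a group cancel out, so positive r at equal numbers makes the r of unlike numbers negative on average. Because libraries of equal number resembled each other, a second fit used the replicate number as a block (the paired fit). It is given beside the first fit because it changes most of the calls below. Replicate 3 stood apart from the others in both groups: its summed level of 16 erythroid marker genes was the highest of its group (6950 CPM against 5430 and 5950 untreated, 8460 CPM against 6510 and 6790 with doxycycline). With doxycycline 8 of the 15 tested erythroid markers rose and 3 fell in the paired fit, and their part in the results below was not tested. Of all genes, that fit called 10.3% higher and 15.6% lower. None of the marker genes described here passed in the fit without the block. Markers of mature myeloid and B cells were low: 9 neutrophil granule genes summed to 0.611 to 43.7 CPM untreated and 0.263 to 11.5 CPM with doxycycline, and 6 B-cell genes to 0.147 to 2.09 and 0.121 to 0.586 CPM. The sums of 7 monocyte and macrophage genes did not overlap, at 4.86 to 10.9 CPM untreated and 1.38 to 2.9 CPM with doxycycline, and 3 of the 4 tested fell in the paired fit. Megakaryocyte genes summed to 37.2 to 299 CPM and mast cell genes to 5.1 to 68.8 CPM, lowest in replicate 3 of both groups, and their part in the results was not tested either.

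Promoters of 8 members called in the paired fit that hold at least 1 of the motifs searched are shown, chosen after their values were seen, as the 250 bases before the RefSeq start of transcription (GRCm38.p6), 5′ to 3′ on the gene's strand. Capitals mark GAGGAA, a core of PU.1 sites, AGATAA, a site of the erythroid GATA factors, and ACGTG, the core of the hypoxia response element, on either strand. Aldoc lies at chr11:78322823-78323072, plus strand; the second of the Idh1 promoters at chr1:65179143-65179392, minus strand; Pgk1 at chrX:106186850-106187099, plus strand; Pgam1 at chr19:41911621-41911870, plus strand; Hk2 at chr6:82774455-82774704, minus strand; Pklr at chr3:89135892-89136141, plus strand; Bpgm at chr6:34476106-34476355, plus strand; and the second of the 4 Pfkm promoters at chr15:98108221-98108470, plus strand.
Aldoc: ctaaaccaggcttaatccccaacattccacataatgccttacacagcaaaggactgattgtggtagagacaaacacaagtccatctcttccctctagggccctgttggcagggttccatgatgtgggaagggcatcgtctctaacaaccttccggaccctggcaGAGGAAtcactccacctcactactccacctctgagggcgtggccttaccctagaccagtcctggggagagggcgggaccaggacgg
Idh1: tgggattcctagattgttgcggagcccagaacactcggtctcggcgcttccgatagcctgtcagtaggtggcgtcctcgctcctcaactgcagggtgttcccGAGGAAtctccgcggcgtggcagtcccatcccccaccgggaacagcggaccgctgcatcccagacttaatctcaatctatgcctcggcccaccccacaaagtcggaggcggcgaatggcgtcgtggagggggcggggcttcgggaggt
Pgk1: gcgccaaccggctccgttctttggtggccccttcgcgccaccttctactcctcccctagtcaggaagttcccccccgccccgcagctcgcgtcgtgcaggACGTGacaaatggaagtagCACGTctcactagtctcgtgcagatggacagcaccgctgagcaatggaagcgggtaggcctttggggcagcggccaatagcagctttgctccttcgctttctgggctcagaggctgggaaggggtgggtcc
Pgam1: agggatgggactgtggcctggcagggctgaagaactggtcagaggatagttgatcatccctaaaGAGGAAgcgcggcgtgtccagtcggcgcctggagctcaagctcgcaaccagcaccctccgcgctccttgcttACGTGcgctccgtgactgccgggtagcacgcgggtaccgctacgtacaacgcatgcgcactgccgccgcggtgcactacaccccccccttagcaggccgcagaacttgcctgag
Hk2: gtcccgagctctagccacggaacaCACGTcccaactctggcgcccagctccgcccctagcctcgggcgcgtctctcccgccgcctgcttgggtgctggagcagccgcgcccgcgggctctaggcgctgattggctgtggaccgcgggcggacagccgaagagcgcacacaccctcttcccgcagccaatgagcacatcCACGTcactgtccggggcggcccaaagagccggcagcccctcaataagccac
Pklr: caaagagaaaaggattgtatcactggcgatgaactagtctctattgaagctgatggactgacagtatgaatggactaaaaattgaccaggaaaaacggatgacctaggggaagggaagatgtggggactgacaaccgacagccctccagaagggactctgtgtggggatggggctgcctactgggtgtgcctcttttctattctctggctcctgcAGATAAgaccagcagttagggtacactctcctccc
Bpgm: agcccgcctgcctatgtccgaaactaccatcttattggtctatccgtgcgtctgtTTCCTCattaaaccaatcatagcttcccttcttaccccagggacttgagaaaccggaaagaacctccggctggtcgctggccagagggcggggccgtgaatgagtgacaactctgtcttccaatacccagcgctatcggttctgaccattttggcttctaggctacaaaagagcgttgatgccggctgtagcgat
Pfkm: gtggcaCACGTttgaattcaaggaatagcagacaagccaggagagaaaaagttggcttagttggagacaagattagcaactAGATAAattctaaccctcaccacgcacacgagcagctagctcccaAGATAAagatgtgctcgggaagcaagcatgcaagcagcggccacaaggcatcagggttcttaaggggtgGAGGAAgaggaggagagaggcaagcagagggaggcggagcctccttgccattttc
Aldoc and Pklr each have a second promoter, not shown, which holds none of the motifs in its 250 bases. The first Idh1 promoter, not shown either, also holds none. Of the genes shown, the first 5 fell and the last 3 rose in the paired fit. Pdk1, Pgd, Gpi1, Tpi1 and Rpia, also called there, have none of the motifs in these 250 bases, and Pkm, with ACGTG on the other strand at -75 in its second promoter, is not shown. Counting from -1 at the base before the start, the first letter of GAGGAA in the Aldoc promoter is at -86, and in that of Idh1 at -148. Pgk1 has ACGTG at -150 and, on the other strand, at -131. Pgam1 has ACGTG at -114 and GAGGAA at -186, Hk2 has ACGTG on the other strand at -226 and -52, and Pklr has AGATAA at -35. In Bpgm, GAGGAA is on the other strand at -195. The printed Pfkm promoter has AGATAA at -169 and -124, GAGGAA at -55 and ACGTG on the other strand at -244.

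Of the 41 members, 40 matched a RefSeq promoter entry, with 61 promoters among them, and the motifs were counted in windows of 250 bases before to 50 after the start. ACGTG was in 23 of these 61 windows (37.7%), against 19.6% of all 32851 windows. Of these 23, 6 belong to Ogdh, which was not called in either fit, and several of them overlap. GAGGAA was in 15 (24.6% against 28.3%) and AGATAA in 4 (6.6% against 11.2%). Of the 4 windows with AGATAA, 3 belong to Pfkm and 1 to Pklr, and both genes were higher with doxycycline in the paired fit. Members lower in the paired fit have 15 windows, of which 3 hold GAGGAA (20.0%), 5 hold ACGTG and none holds AGATAA. Members higher in the paired fit have 8 windows, of which 5 hold GAGGAA (62.5%), 4 hold AGATAA and 2 hold ACGTG, and 4 of these 8 windows are those of Pfkm. A match is a description of the letters and was not tested as a binding site; counts within 1 gene share sequence where its windows overlap.

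Of the 41 members, 39 had enough counts to be tested. Without the block, edgeR's quasi-likelihood test called 1 member lower (Aldoc) and 0 higher at an adjusted p under 0.05. Of all 14158 genes tested it called 2.59%, with 2.18% lower and 0.417% higher. At an unadjusted p under 0.05 the same test held 7 members lower and 2 higher, against 9.56% of all genes lower and 5.86% higher (15.4% either way). DESeq2 called 1 member lower and 0 higher, and 6.13% of the 15181 genes it tested. In the paired fit, 10 members fell, 4 rose and 25 did not pass; the 14 are 35.9% of the members, and 25.8% of all genes passed (26.1% of those with a mean of at least 5 CPM). Among all genes the paired fit called 10.3% higher and 15.6% lower with edgeR, a split that was more even with DESeq2 (1736 higher, 1660 lower). Counted without any model, 8 members had all 3 treated libraries below all 3 untreated ones and 2 had them all above, against 11.7% and 8.88% of all genes (20.6% either way). By pairs of equal replicate number, 16 members were lower in all 3 and 10 higher in all 3, against 29.4% and 28% of all genes (57.4% either way). The median log2 fold change was -0.11 over the tested members and 0.01 over all genes. By pathway, the paired fit called 10 of 17 tested glycolytic genes (58.8%), 2 of 7 pentose phosphate genes (28.6%), 1 of 4 genes of the pyruvate dehydrogenase step (25%) and 1 of 11 genes of the TCA list (9.09%). The difference between pathways was not tested. Without replicate 1, the paired fit called 4 of 17 glycolytic genes (23.5%), while the counts in the other 3 lists were as before. Calls over all genes also dropped in that fit, to 368 higher and 880 lower of 14399 tested. With all replicates they were 1452 higher and 2206 lower of 14158.

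**Figure D1:**
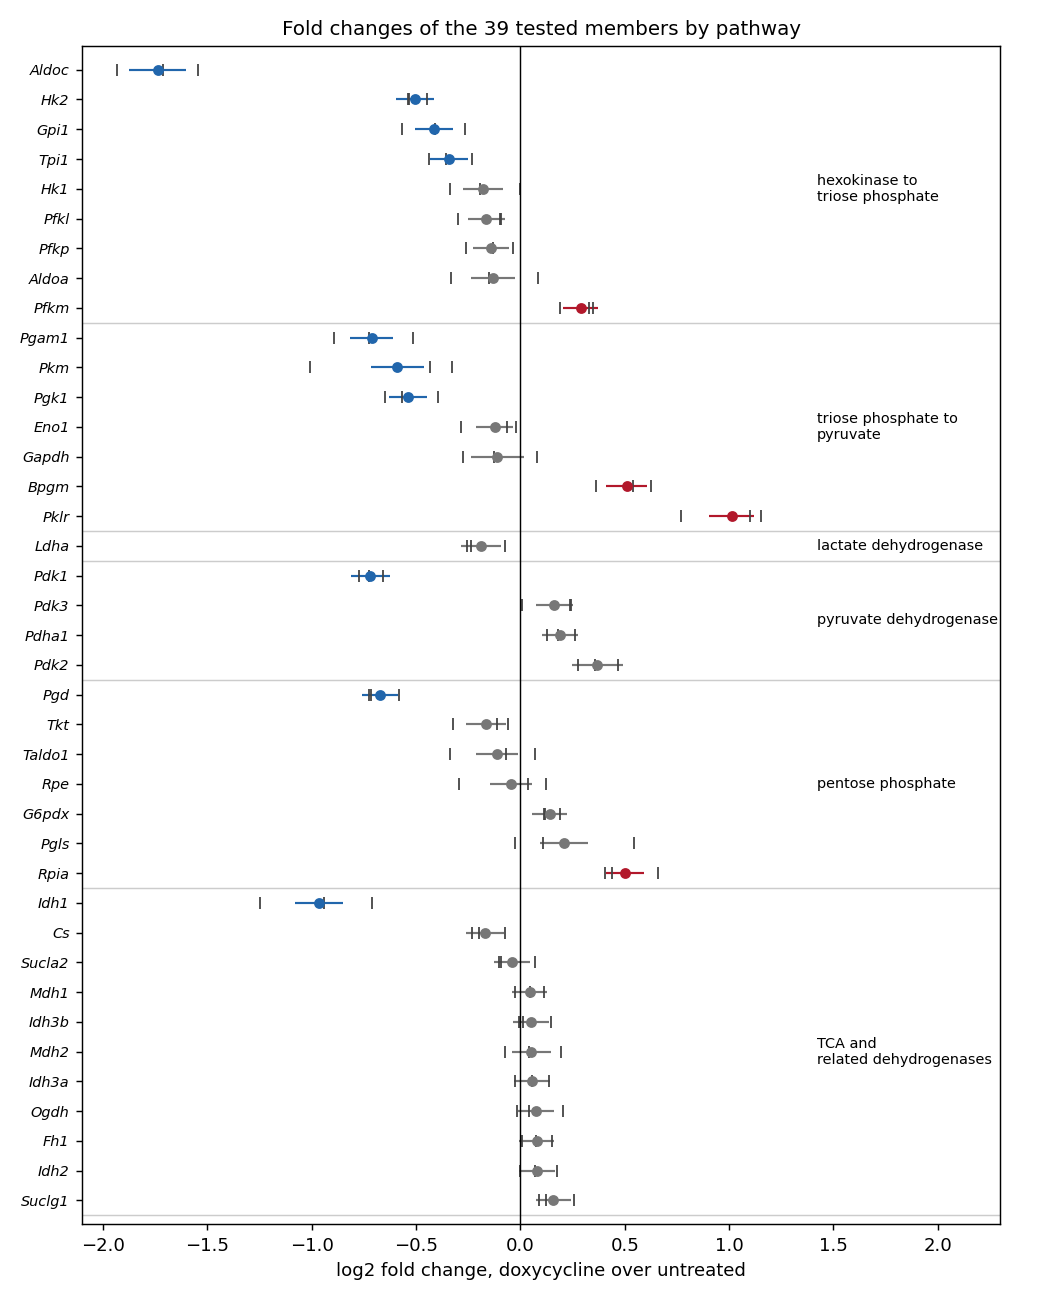
Log2 fold change (x axis) of each of the 39 tested members (y axis, grouped by pathway) in the paired fit; points with bars are the estimate and its SE, short vertical marks the 3 pairs of equal replicate number, blue fell, red rose and grey did not pass. Called genes lie mostly in glycolysis, and the genes of the TCA list other than Idh1 lie between -0.17 and 0.16.

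The first part of glycolysis, from hexokinase to the triose phosphates, held the member with the largest fall. In the paired fit 4 of its 9 tested genes fell (Aldoc, Hk2, Gpi1 and Tpi1), 1 rose (Pfkm) and 4 did not pass. Aldoc (ENSMUSG00000017390.15, chr11:78322968-78327781, plus strand), the brain-type aldolase, had 16.4, 9.51 and 12.5 CPM untreated and 4.28, 3.25 and 3.79 CPM with doxycycline. The groups did not overlap: every treated library was under the lowest untreated one. The mean went from 12.8 ± 3.47 to 3.77 ± 0.516 CPM (SD, n = 3), a log2 fold change of -1.76 (SE 0.26, adjusted p = 0.021 with edgeR; paired fit -1.74, SE 0.14, adjusted p = 1.4e-05). Leaving out 1 library at a time, the unpaired call was lost in 5 of 6 fits, with log2 fold changes of -1.94 to -1.52 and adjusted p of 0.055 to 0.083, and was kept without untreated replicate 3. Aldoa, the muscle and red-cell aldolase, had 1087, 904 and 1061 CPM untreated and 863, 814 and 1125 CPM with doxycycline, overlapping groups with no call (paired fit -0.13, adjusted p = 0.39).

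Hexokinase traps glucose in the cell as its phosphate. Hk2, the inducible isozyme, had 45.7, 66.7 and 47.1 CPM untreated and 31.5, 46 and 34.6 CPM with doxycycline. The groups overlapped, because treated replicate 2 was above untreated replicate 1, but each treated library was under the untreated library of its number. Its log2 fold change was -0.51 in both fits (adjusted p = 0.33 unpaired; SE 0.09 and adjusted p = 0.0026 in the paired fit). Hk1, the constitutive isozyme, had 407, 596 and 589 CPM untreated and 356, 596 and 466 CPM with doxycycline, and did not pass (paired fit -0.18, adjusted p = 0.21). Hk3, a hexokinase of myeloid cells, had deposited counts of 1, 14 and 4 untreated and 1, 4 and 3 with doxycycline. No library's column goes below a value of 1, so Hk3 was at or near the floor and was not tested.

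Gpi1, the isomerase that follows hexokinase, had 376, 357 and 391 CPM untreated and 254, 269 and 325 CPM with doxycycline, without overlap. It fell in the paired fit by 0.41 on the log2 scale (SE 0.09, adjusted p = 0.0086; unpaired adjusted p = 0.21). Tpi1, which interconverts the triose phosphates, had 682, 539 and 688 CPM untreated and 504, 420 and 586 CPM with doxycycline. Treated replicate 3 lay within the untreated range, and the paired fit gave -0.34 (SE 0.09, adjusted p = 0.020; unpaired adjusted p = 0.42). Pfkm, a phosphofructokinase subunit of muscle and red cells, moved the other way, from 160, 183 and 211 CPM to 183, 229 and 268 CPM. It was higher in each pair (0.19 to 0.35 on the log2 scale) although the groups overlapped, and the paired fit gave 0.29 (SE 0.08, adjusted p = 0.031; unpaired adjusted p = 0.53). The other two phosphofructokinase genes did not pass: Pfkl had paired log2 fold change -0.16 (adjusted p = 0.21) and Pfkp -0.14 (adjusted p = 0.26). Pfkp had 205 and 171 CPM in replicate 3 of the 2 groups, against 93.8 to 103 CPM in the other 4 libraries.

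**Figure D2:**
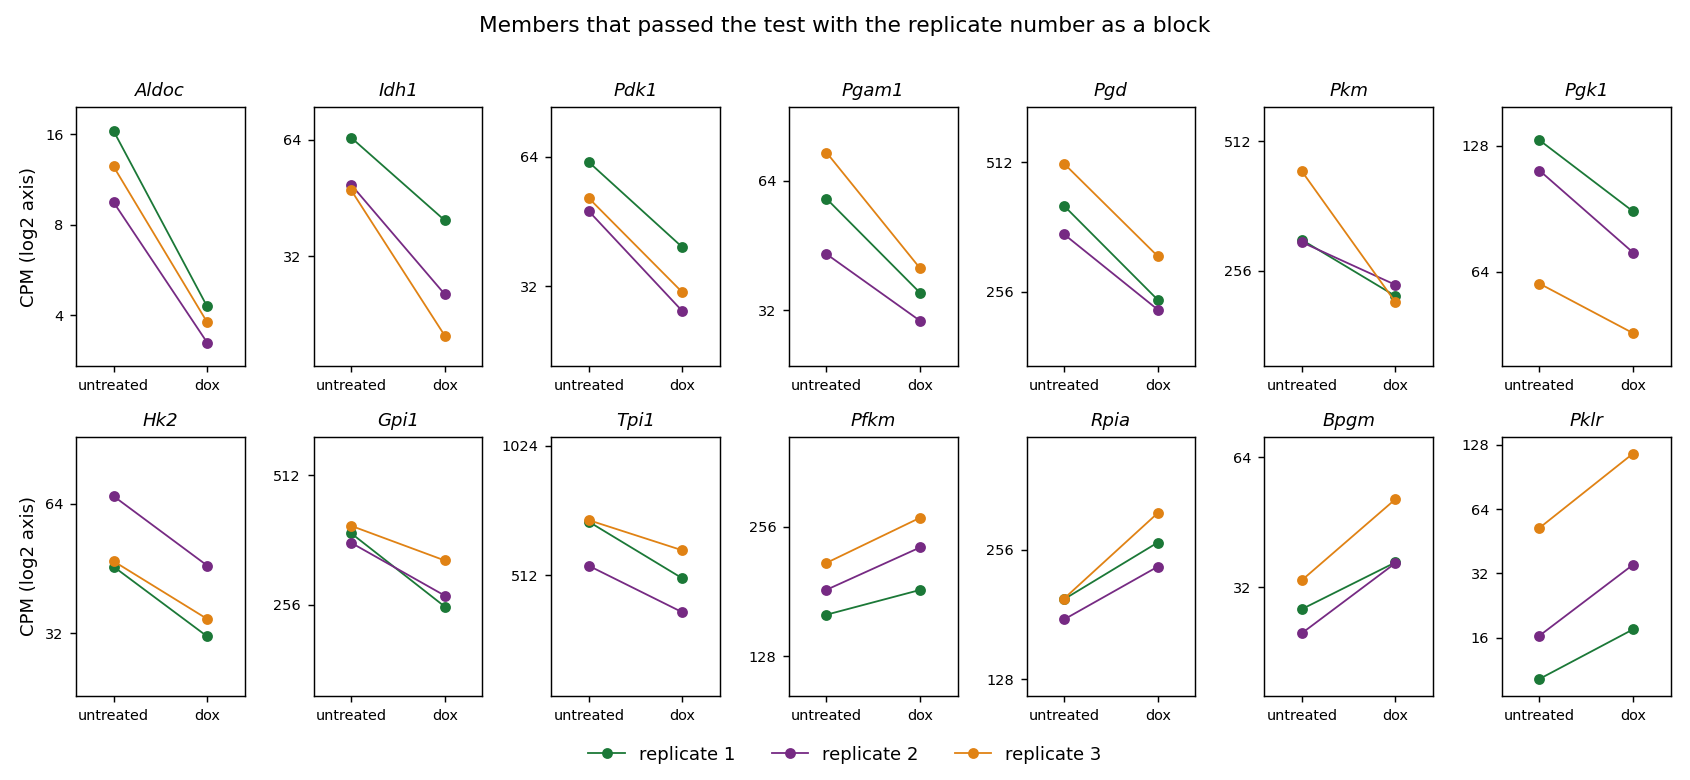
Level in CPM (y axis, log2 scale, one panel per gene) in untreated and doxycycline-treated libraries of the 14 members called in the paired fit; lines join libraries of equal replicate number. All 3 lines slope the same way in each panel. Pklr, Pgk1 and Pfkm are among the genes that differ more between replicates than between the groups.

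In the second part of glycolysis, from the triose phosphates to pyruvate, 3 of 7 tested genes fell in the paired fit (Pgam1, Pkm and Pgk1), 2 rose (Pklr and Bpgm) and 2 did not pass. Pgk1 makes the first ATP of glycolysis and Pgam1 moves the phosphate of phosphoglycerate. Pgam1 had 58.1, 43.2 and 74.4 CPM untreated and 35.1, 30.2 and 40 CPM with doxycycline, all treated libraries below all untreated ones. Its log2 fold change was -0.74 unpaired (SE 0.22, adjusted p = 0.17) and -0.71 in the paired fit (SE 0.10, adjusted p = 7.0e-04). Pgk1 had 132, 112 and 59.9 CPM untreated and 89.1, 71.1 and 45.6 CPM with doxycycline. Replicate 3 was the lowest library of both groups, the groups overlapped, and the paired fit gave -0.54 (SE 0.09, adjusted p = 0.0019; unpaired adjusted p = 0.53).

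The pyruvate kinase genes moved in opposite directions in the paired fit. Pkm, which encodes the muscle-type and proliferation-associated forms, had 302, 299 and 436 CPM untreated and 224, 238 and 217 CPM with doxycycline. Its groups did not overlap, and the fold change was -0.61 unpaired (SE 0.18, adjusted p = 0.14) and -0.59 paired (SE 0.13, adjusted p = 0.0071); the pair of replicate 3 gave -1.01, the others -0.43 and -0.33. Pklr had 10.3, 16.4 and 52.3 CPM untreated and 17.5, 35.2 and 116 CPM with doxycycline. Untreated replicate 3 was above treated replicates 1 and 2, so the groups overlapped widely, while the pairs rose by 0.77, 1.10 and 1.15 on the log2 scale. The paired fit gave 1.01 (SE 0.11, adjusted p = 1.0e-04), and the unpaired fit 1.10 (SE 0.81, adjusted p = 0.62), a value that ranged from 0.00 without treated replicate 3 to 2.08 without untreated replicate 3. The libraries had the same order for Slc4a1, which encodes the red-cell anion exchanger, within each group: 14.4, 40 and 100 CPM untreated and 29.6, 96 and 224 CPM with doxycycline; the part of erythroid marker levels in the Pklr result was not tested. Exons of Hcn3 on the opposite strand overlap 22% of Pklr's merged exons, and the library kit does not mark strand.

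Bpgm had 28.4, 25 and 33.2 CPM untreated and 36.5, 36.4 and 51.2 CPM with doxycycline, all treated libraries above all untreated ones. Its mean went from 28.9 ± 4.12 to 41.4 ± 8.51 CPM (SD, n = 3), with log2 fold change 0.52 unpaired (SE 0.20, adjusted p = 0.27) and 0.51 paired (SE 0.10, adjusted p = 0.0044). Eno1, enolase, had 205, 184 and 251 CPM untreated and 168, 182 and 240 CPM with doxycycline and did not pass (paired fit -0.12, adjusted p = 0.35). Gapdh did not pass either (paired fit -0.11, adjusted p = 0.56). Ldha, which reduces pyruvate to lactate, had 1392, 1186 and 1327 CPM untreated and 1165, 1007 and 1262 CPM with doxycycline, lower in each pair but without a call (paired fit -0.19, adjusted p = 0.18). Ldhb had deposited counts of 1, 1 and 1 untreated and 1, 2 and 1 with doxycycline, at the floor of the table, and was not tested.

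Several glycolytic genes have near-identical copies, at least 95% alike over at least 300 bases, between which reads can be split, so their single rows are uncertain. Gapdh is the extreme case: its own row held between 7.75 and 12.4 CPM, while the row of Gm13394, a processed pseudogene, held 316, 300 and 395 CPM untreated and 246, 268 and 352 CPM with doxycycline. Of 76 near-identical genes, 73 were in the table, and with them summed Gapdh had 336, 321 and 420 CPM untreated and 266, 288 and 378 CPM with doxycycline (paired fit -0.22, adjusted p = 0.098). Pgam1-ps2 had 52.4, 46.5 and 65.6 CPM untreated and 33.7, 27.5 and 40.2 CPM with doxycycline, about as much as the Pgam1 row itself. Summing it into Pgam1 gave -0.71 in the paired fit (adjusted p = 2.6e-04). With copies summed, Gpi1 had a paired log2 fold change of -0.41 (adjusted p = 0.011), Tpi1 of -0.34 (adjusted p = 0.02), Pgk1 of -0.56 (adjusted p = 0.0011) and Pkm of -0.59 (adjusted p = 0.007). Eno1 with its copies, Eno1b among them, and Ldha again did not pass in the paired fit (adjusted p = 0.25 and 0.18). Aldoa, whose symbol is shared by gene models that do not overlap, was not searched for copies.

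At the pyruvate dehydrogenase step, 1 kinase gene fell in the paired fit and the other 3 members did not pass. The kinases phosphorylate and switch off the enzyme, and Pdk1 is a known hypoxia-responsive gene. Pdk1 (chr2:71873224-71903858, plus strand) had 62.2, 47.8 and 51.3 CPM untreated and 39.4, 28 and 31 CPM with doxycycline, without overlap. Its log2 fold change was -0.71 unpaired (SE 0.19, adjusted p = 0.11) and -0.72 paired (SE 0.09, adjusted p = 3.3e-04). Pdk2 had 8.81, 8.08 and 5.45 CPM untreated and 10.7, 11.2 and 7 CPM with doxycycline, higher in each pair and just short of the threshold (paired fit 0.37, adjusted p = 0.0504). Pdk3 had 308, 276 and 97.5 CPM untreated and 364, 277 and 115 CPM with doxycycline. Pdha1, the catalytic subunit of the enzyme, had 537, 536 and 289 CPM untreated and 609, 586 and 347 CPM with doxycycline. Both are X-linked, were lowest in replicate 3 of both groups and did not pass (adjusted p = 0.21 and 0.14 in the paired fit).

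In the pentose phosphate pathway 1 of 7 genes fell and 1 rose in the paired fit. Pgd, the second dehydrogenase of the oxidative, NADPH-making arm, had 405, 348 and 508 CPM untreated and 245, 233 and 310 CPM with doxycycline. The groups did not overlap, and the mean went from 420 ± 81 to 263 ± 41.3 CPM (SD, n = 3), a log2 fold change of -0.68 unpaired (SE 0.19, adjusted p = 0.13) and -0.67 paired (SE 0.09, adjusted p = 3.4e-04). Rpia, which makes ribose phosphate, had 197, 176 and 197 CPM untreated and 266, 234 and 312 CPM with doxycycline, also without overlap. It rose in the paired fit by 0.50 (SE 0.09, adjusted p = 0.0026), with an unpaired adjusted p of 0.14. G6pdx, the first enzyme of the oxidative arm and X-linked, had 320, 351 and 214 CPM untreated and 346, 382 and 244 CPM with doxycycline. It was higher in each pair by 0.11 to 0.19 on the log2 scale and did not pass (paired fit 0.14, adjusted p = 0.25). Pgls, which opens the lactone between the 2 dehydrogenases, had paired log2 fold change 0.21 (adjusted p = 0.21), and 20.6% of its merged exons are shared with Fam129c on the same strand. Tkt, transketolase, went from 897 ± 49.1 to 801 ± 61.4 CPM and Taldo1, transaldolase, from 589 ± 121 to 546 ± 125 CPM (SD, n = 3), neither passing; Rpe, the epimerase, was at 75.1 ± 5.48 and 73.6 ± 14.4 CPM.

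Idh1 was the only one of the 11 genes of the TCA list to pass in the paired fit, and its enzyme works in the cytosol and peroxisome, where it makes NADPH. Idh1 (chr1:65158616-65186500, minus strand) had 64.9, 49 and 47.4 CPM untreated and 39.6, 25.5 and 20 CPM with doxycycline, without overlap. The mean went from 53.8 ± 9.64 to 28.4 ± 10.1 CPM (SD, n = 3). The log2 fold change was -0.92 unpaired (SE 0.27, adjusted p = 0.16) and -0.97 paired (SE 0.12, adjusted p = 2.3e-04), and the pairs gave -0.71, -0.94 and -1.25. Cs, citrate synthase, the entry to the cycle, had 708, 717 and 704 CPM untreated and 616, 612 and 668 CPM with doxycycline. Its groups did not overlap, but the paired difference of -0.17 did not pass (SE 0.09, adjusted p = 0.20).

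The other 9 genes of the TCA list had paired log2 fold changes between -0.04 and 0.16, each with an SE between 0.08 and 0.09. They cover the mitochondrial isocitrate dehydrogenases (Idh2, Idh3a, Idh3b), oxoglutarate dehydrogenase (Ogdh), succinyl-CoA ligase (Sucla2, Suclg1), fumarase (Fh1) and the malate dehydrogenases (Mdh1, Mdh2). Idh2, the mitochondrial NADP-dependent enzyme, had 137, 109 and 98.5 CPM untreated and 136, 123 and 103 CPM with doxycycline. Suclg1 had 164, 139 and 133 CPM untreated and 178, 148 and 160 CPM with doxycycline, higher in each pair, with an adjusted p of 0.20 in the paired fit. Mdh2 was the highest of these genes per length, at 174 CPM per kilobase of exon untreated and 181 with doxycycline, and Mdh1, its cytosolic counterpart, was at 70.9 and 73.1.

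Levels per kilobase of merged exons were used to order the isozymes. Merged exons join all annotated exons of a gene, so their length can exceed that of the transcripts present, and the order depends on it. Hk1 was above Hk2, with means of 62.2 and 8.91 CPM per kilobase untreated and 55.4 and 6.26 with doxycycline. Pfkm stood at 55.2 untreated and 67.9 with doxycycline, above Pfkl (12.6 and 11.3) and Pfkp (10.2 and 9.05), and these latter genes do not differ beyond their spread. Their merged exons measure 3340 bases for Pfkm, 6675 for Pfkl and 13401 for Pfkp. In CPM, not divided by length, the means were 184 and 227 for Pfkm (untreated and doxycycline). They were 136 and 121 for Pfkp and 84.2 and 75.5 for Pfkl. Pkm was at 69.1 and 45.2 and Pklr at 8.13 and 17.4, while Ldha, at 393 and 346, had no counterpart above the floor. Pdk3 was the leading kinase gene, at 88.7 and 98.5, above Pdk1 (6.91 and 4.22) and Pdk2 (2.35 and 3.04). Idh2 was at 44.3 and 46.7, and Idh1 at 19.4 and 10.2. Gene models that do not overlap share the symbol Aldoa, so it has no such value.

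Ratios between isozymes within a library do not depend on the scaling of the libraries. Of the 9 ratios computed, 3 had groups that did not overlap, and an exact two-sided permutation test of 3 against 3 cannot give a p below 0.10, so none could pass. Within pairs of equal replicate number, 7 of the 9 ratios moved the same way in all 3 pairs, and an exact sign-flip permutation test over 3 pairs cannot give a p below 0.25. The log2 ratio of Idh2 to Idh1 was 1.08, 1.15 and 1.05 untreated and 1.78, 2.27 and 2.37 with doxycycline, a difference of 1.05 (exact p = 0.1, adjusted 0.3). The log2 ratio of Aldoc to Aldoa went from -6.34 ± 0.267 to -7.95 ± 0.279 and that of Pdk1 to Pdk2 from 2.87 ± 0.338 to 1.78 ± 0.42 (SD, n = 3; exact p = 0.1, adjusted 0.3 for each). Pklr to Pkm had log2 ratios of -4.88, -4.19 and -3.06 untreated and -3.67, -2.76 and -0.90 with doxycycline. That ratio was higher in each pair, by a mean of 1.60, but the groups overlapped (exact p = 0.2, adjusted 0.36). Pfkm to Pfkl differed by 0.45 and Hk1 to Hk2 by 0.33, with overlapping groups (exact p = 0.3 and 0.2, adjusted 0.45 and 0.36). Within pairs these differences were 0.49, 0.42 and 0.45 for Pfkm to Pfkl and 0.34, 0.54 and 0.11 for Hk1 to Hk2 (exact p = 0.25 over pairs, adjusted 0.321 for each). Mdh2 to Mdh1 differed by 0.01, Pfkl to Pfkp by -0.02 and Pdk3 to Pdk2 by -0.21, each less than its spread between replicates.

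**Figure D3:**
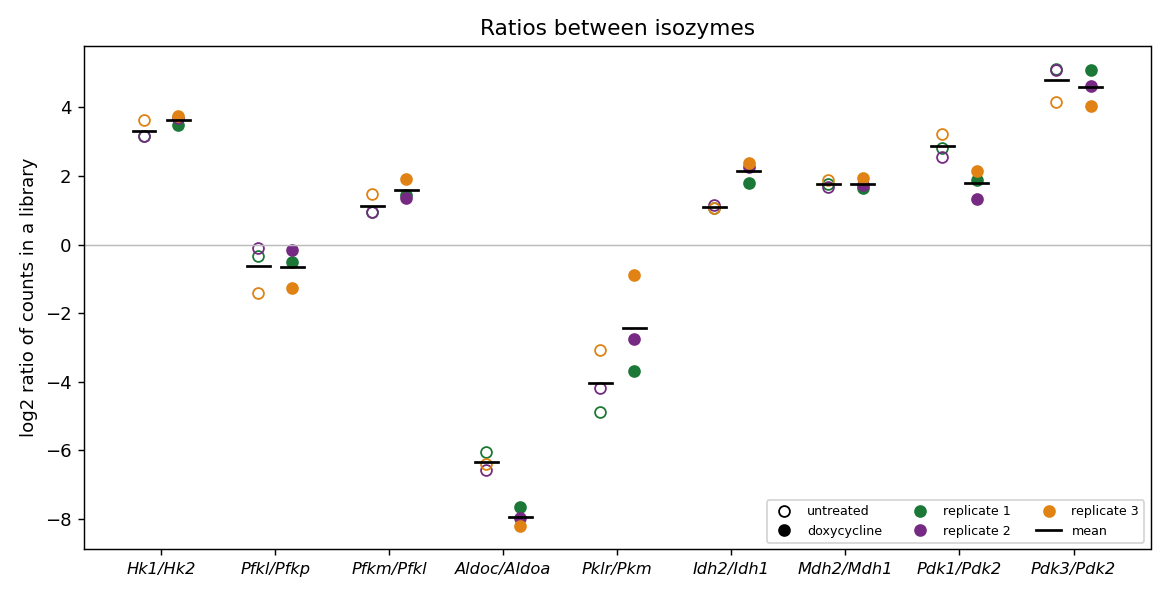
Log2 ratio of the counts of 2 isozymes in a library (y axis) for 9 pairs (x axis); open circles are untreated and filled circles doxycycline-treated libraries, colours the replicate number and black lines the group means. Idh2/Idh1, Aldoc/Aldoa and Pdk1/Pdk2 have groups that do not overlap.

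The spread that the replicate number takes up was largest for the X-linked members and a few others. Replicate 3 against the mean of replicates 1 and 2 gave log2 differences of -1.58 untreated and -1.46 with doxycycline for Pdk3, -1.02 and -0.80 for Pgk1, -0.89 and -0.78 for Pdha1, and -0.65 and -0.58 for G6pdx. The median over these 4 X-linked members was -0.95 untreated and -0.79 with doxycycline, and over the 35 autosomal ones 0.06 and 0.17. In Pgk1 this difference between replicates exceeds the paired change with doxycycline. In the other direction, Pklr was 2.0 and 2.22 and Pfkp about 1 higher in replicate 3. All 14 called genes kept their sign in the 3 paired fits that each left out 1 replicate. The number of member calls was 8 without replicate 1 (Gpi1, Hk2, Pfkm, Pgk1, Pkm and Tpi1 no longer passed). It was 12 without replicate 2 (Pfkm and Tpi1 no longer passed) and 17 without replicate 3, which added Aldoa, Ldha and Pdk2. Over all genes, the fit without replicate 1 called 368 higher and 880 lower of 14399 tested. Without replicate 2 these counts were 1310 and 2119 of 14226, and without replicate 3 they were 2071 and 2677 of 14212.

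**Figure D4:**
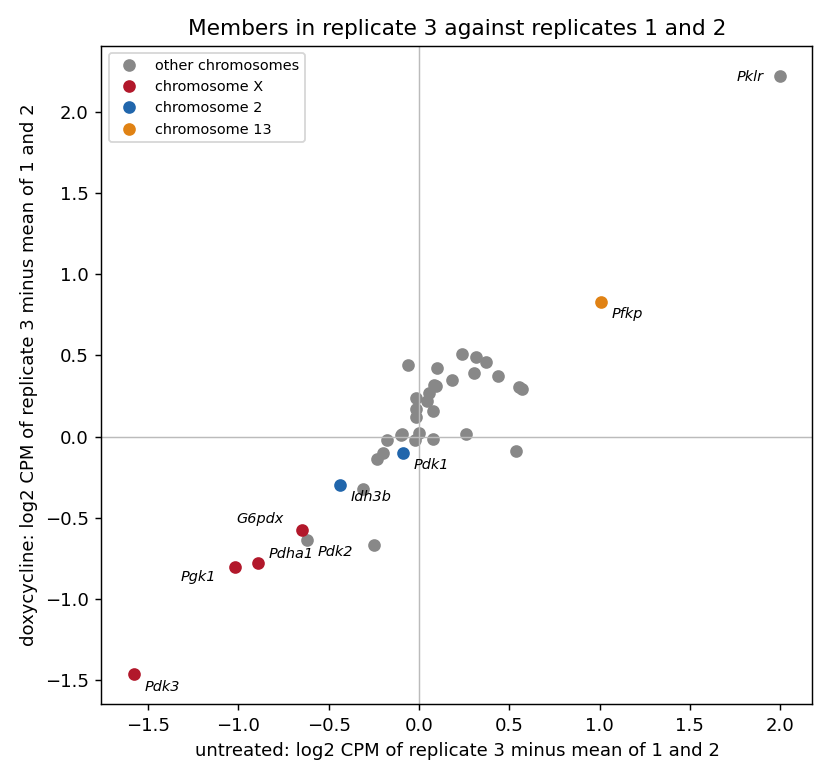
Log2 CPM of replicate 3 minus the mean of replicates 1 and 2, in untreated (x axis) and doxycycline-treated libraries (y axis), 1 point per tested member, coloured by chromosome. The 4 X-linked members lie at the lower left, between -1.58 and -0.58 on both axes, and Pklr lies at the upper right.

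Beyond the 41 members, 65 further genes of the same pathways were listed (regulators, sugar entry, gluconeogenesis, pyruvate transport, remaining TCA subunits), and 47 of them could be tested. Without the block 1 fell (Nnt) and 0 rose (5 lower and 3 higher at an unadjusted p under 0.05 with edgeR; DESeq2 called 1 lower and 1 higher); in the paired fit 7 fell and 5 rose. That is 25.5% of the 47, beside 25.8% of all genes, and the shares over all genes at an unadjusted p (15.4%) and with DESeq2 (6.13%) stand above. Nnt, the mitochondrial transhydrogenase that makes NADPH from NADH, had 38.2, 36.9 and 32.8 CPM untreated and 17.3, 17.8 and 18.6 CPM with doxycycline, without overlap. Its log2 fold change was -1.01 in both fits (unpaired SE 0.14, adjusted p = 0.018; paired adjusted p = 1.1e-04), and the unpaired call was lost in 4 of 6 fits that left out 1 library. Among genes that divert or supply sugar phosphates, Pgm1 (phosphoglucomutase) had a paired log2 fold change of -0.51 (adjusted p = 0.0015) and Galm (galactose mutarotase) of -0.54 (adjusted p = 0.043). Minpp1, a phosphatase that can also remove bisphosphoglycerate, rose by 0.55 (adjusted p = 0.0015) and Prps1, which makes the activated ribose for nucleotides, by 0.40 (adjusted p = 0.012). Pck2, the mitochondrial enzyme that makes phosphoenolpyruvate, rose by 0.66 (adjusted p = 0.0022), while G6pc3, a glucose phosphatase, had -0.55 (adjusted p = 0.023). At the mitochondrial entry, Pdp2, the phosphatase that switches pyruvate dehydrogenase on, had -0.46 (adjusted p = 0.0048). Of the succinate dehydrogenase genes that passed, Sdhd had -0.66 (adjusted p = 0.0059) and Sdhc 0.38 (adjusted p = 0.023). Acly, which splits citrate in the cytosol, had -0.29 (adjusted p = 0.034).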

How the data were processed

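The authors deposited a table of raw read counts per gene for 6 libraries. Per the submitters' processing notes, bcl2fastq (2.17.1.14), STAR and DESeq2 were used with mm10/GRCm38; their roles are not stated, nor is a counter or an annotation named (not given in the sources used here). Per the labels, libraries came from the TruSeq RNA v2 kit, which does not mark strand, so overlapping genes on opposite strands cannot be told apart. The smallest deposited count is 1 in every column.

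Counts of all genes were filtered with filterByExpr (14158 genes kept), scaled by TMM and tested with edgeR (4.0.16, R 4.3.3), quasi-likelihood, with Benjamini-Hochberg adjustment over all genes tested and a threshold of 0.05; SE is the fold change over the square root of F. Log2 fold changes are treated over untreated. The biological coefficient of variation was 28.6% (4 residual degrees of freedom), and 11.3% with the replicate number as a block (2). The labels number the replicates but do not say what equal numbers share; the pairing rests on the correlations in the report. Lengths and positions are from GENCODE vM21 (GRCm38), promoters from RefSeq. The fit was also run on simulated counts, without replicate effects or with effects drawn independently for each gene. The data have replicate shifts shared along chromosomes, so that run does not check the calls under such shifts. Alternatives were DESeq2 (1.42.0), other scalings, no filter, leaving out libraries, and, added after the data were seen, copies summed into members. Other pathway genes were named for the smallest paired adjusted p, up to 3 per list, plus any called unpaired; 1 gene that passed is counted but not reported by name here. The members and lists were chosen with earlier results of these data known.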

Additional observations from a re-analysis of the deposited data

How the results depend on the processing

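The replicate block changed the calls most. With it, 1452 genes were higher and 2206 lower, 4 members higher and 10 lower, and 5 other pathway genes higher and 7 lower. DESeq2 without the block called 294 genes higher and 636 lower, and 1 other pathway gene higher; DESeq2 with the block called 1736 and 1660 genes, 5 and 9 members (Tpi1 no longer passed and Pdk2 did), and 7 and 5 other pathway genes. With near-identical copies summed, an alternative chosen after seeing the data, the block gave 4 members higher and 10 lower. Scaling by relative log expression or upper quartiles, no filter, and subtracting 1 from each value left 1 member called.

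Leaving out 1 library without the block gave 0 to 26 genes higher and 35 to 242 lower, 0 members and 0 other pathway genes higher, and 0 to 1 of each lower. Leaving out 1 replicate with the block gave 368, 1310 and 2071 genes higher and 880, 2119 and 2677 lower (without replicates 1, 2 and 3), 3 to 5 members higher and 5 to 12 lower, and 1 to 6 other pathway genes higher and 2 to 9 lower. Without the block the median log2 fold change ranged from -0.45 to -0.08 (hexokinase to triose phosphate; -0.26 to -0.15 with it), -0.28 to 0.02 (triose phosphate to pyruvate), -0.25 to -0.10 (lactate dehydrogenase), -0.14 to 0.46 (pyruvate dehydrogenase), -0.09 to 0.05 (pentose phosphate; -0.13 to 0.08 with the block) and -0.02 to 0.12 (TCA). Ratios that changed sign when 1 library was left out were Pfkl to Pfkp (0.12, 0.23 and 0.29, with a lowest value of -0.42), Mdh2 to Mdh1 (-0.04 and -0.08) and Pdk3 to Pdk2 (0.07, with a lowest value of -0.52); the cause was not tested. On the forward strand alone, GAGGAA was in 8 member promoters (13.1%, against 15.6% of all promoters) and ACGTG in 12 (19.7% against 13.6%). AGATAA was in 4 on that strand (6.6% against 5.9%). Hk3 and Ldhb did not pass the filter on low counts; whether they are expressed below these depths was not tested.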

Other observations

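The low X-linked members in replicate 3 belong to a wider pattern over all genes. Replicate 3 minus the mean of replicates 1 and 2 had a median log2 difference of -0.508 untreated and -0.522 with doxycycline over 503 X-linked genes. It was -0.358 and -0.341 over chromosome 17, -0.252 and -0.292 over chromosome 2, and 0.374 and 0.279 over chromosome 13, where Pfkp lies. Other X-linked pathway genes had the same sign: Prps1 had -1.12 untreated and -1.06 with doxycycline, Prps2 -1.04 and -0.998, Idh3g -0.93 and -0.72, and Pfkfb1 -0.93 and -1.48. Xist, the RNA that coats an inactive X chromosome, lay between 0.0101 and 0.935 CPM in all 6 libraries. The labels do not say how the replicates differ.

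The summed level of 6 megakaryocyte genes was 299, 209 and 63.9 CPM in untreated replicates 1, 2 and 3 and 157, 118 and 37.2 CPM with doxycycline, and 4 of the 5 tested fell in the paired fit. Most of that sum is Pf4, with 260, 165 and 37.4 CPM untreated and 142, 94 and 22.9 CPM with doxycycline; Itga2b, with a paired log2 fold change of -1.48, had 24.7, 29.7 and 14 CPM untreated and 6.52, 12.2 and 5.94 CPM with doxycycline. The sum of 5 mast cell genes, mostly Fcer1a, was 68.8, 46.6 and 5.1 CPM untreated and 51.6, 24.8 and 8.96 CPM with doxycycline. Of the 4 tested, Ms4a2 (-3.01) and Cpa3 (-1.86) fell in the paired fit, and Fcer1a (0.18) did not pass. The paired fit called 15.6% of all genes lower, and none of these megakaryocyte and mast cell genes passed without the block.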
